A study of Mus musculus with 6 samples.

Results

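The genes described here serve antigen presentation by major histocompatibility complex (MHC) class II molecules, measured in colon tumours of mice with and without a human IL8 transgene. They are 9 genes: H2-Aa, H2-Ab1, H2-Eb1, Cd74, Ciita, H2-DMa, H2-DMb1, H2-Oa and Ifi30. Members were found by gene symbol, as every probe set (a group of short array probes that read 1 transcript) that the platform annotation assigns to exactly 1 of these genes. The rule found 16 probe sets of 8 genes, out of 45037 probe sets and 18194 genes on the array. H2-DMb1 had none, because its probe sets also carry the symbol of its neighbour H2-DMb2, and 3 probe sets with several symbols were left out in all.

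Each of 6 Affymetrix arrays held total RNA of a colon cancer tumour sample, 3 from IL8 transgenic mice and 3 from control mice labelled wild type, all CBA/C57BL/6. IL8 (CXCL8) is a human chemokine that draws neutrophils into tissue. The sources used here do not give the promoter that drives the transgene, the ages of the mice, how the tumours arose or whether a sample holds 1 tumour or several. The p-values therefore cover the spread among these 6 samples only, which may be technical. The comparison asks how gene expression in the tumour differs with the transgene.

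MHC class II molecules are pairs of an alpha and a beta chain that show peptides from swallowed proteins to CD4 T cells. In the mouse, H2-Aa and H2-Ab1 encode the chains of I-A, and H2-Eb1 the beta chain of I-E. Cd74 encodes the invariant chain, which blocks the groove until the molecule reaches an endosome, where H2-DM exchanges the last invariant chain peptide for an antigen peptide and H2-O restrains H2-DM. Ciita encodes the coactivator that switches these genes on in dendritic cells, B cells and macrophages, and after interferon gamma in many other cells. Ifi30 encodes GILT, an endosomal reductase that opens disulfide bonds of antigens.

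Class II genes share a promoter layout in which an X box, bound by the RFX complex, lies upstream of a Y box, bound by NF-Y, and CIITA joins the proteins assembled there. The promoters of 6 of the 9 members were in the RefSeq promoter table (GRCm38.p6), which spans 250 bases before to 50 bases after each listed start, and H2-Ab1, Cd74 and Ciita were not. The letters GCAAC, found in many X boxes, followed by ATTGG, the CCAAT box of NF-Y read on the other strand, with 24 to 32 bases between them, were searched on both strands. This spacing was set after class II promoters had been read. The pair was present in H2-Aa, H2-Eb1 and H2-Oa among the members, and in H2-Ob and H2-Eb2 among the other class II genes. It was found in 0.408% of all 32851 promoters of that length, while GCAAC alone was found in 35.2% and ATTGG alone in 37.4%. It was not found in either listed promoter of H2-DMa, or in those of H2-DMb1 and Ifi30. The 120 bases before the listed start are printed for the 3 members with the pair and for Ifi30, whose level was not lower in the transgenic tumours, with the letters of the pair in capitals:
H2-Aa, chr17:34287824-34287943, minus strand: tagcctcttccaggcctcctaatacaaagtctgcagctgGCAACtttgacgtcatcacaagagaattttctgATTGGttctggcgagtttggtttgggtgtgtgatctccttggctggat
H2-Eb1, chr17:34305747-34305866, plus strand: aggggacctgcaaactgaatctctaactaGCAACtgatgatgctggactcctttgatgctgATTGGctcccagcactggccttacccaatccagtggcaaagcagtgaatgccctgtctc
H2-Oa, chr17:34092259-34092378, plus strand: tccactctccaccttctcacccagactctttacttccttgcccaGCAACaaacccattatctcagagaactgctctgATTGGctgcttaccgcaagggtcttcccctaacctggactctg
Ifi30, chr8:70766664-70766783, minus strand: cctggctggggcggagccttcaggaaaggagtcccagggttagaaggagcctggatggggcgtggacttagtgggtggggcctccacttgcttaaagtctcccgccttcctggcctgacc
In H2-Aa and H2-Oa 28 bases separate the letters, and in H2-Eb1 27. A match describes these letters only and is not evidence of binding. H2-Oa, H2-DMa, H2-DMb1, H2-Ab1, H2-Aa and H2-Eb1 lie in that order on chromosome 17, in the same stretch as H2-Ob, H2-Eb2 and the antigen processing genes Tap1, Tap2, Psmb8 and Psmb9, while Ciita is on chromosome 16, Cd74 on 18 and Ifi30 on 8.

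Levels are the authors' log2 values, on which a difference of 1 is 2-fold, and levels of different probe sets are not comparable with each other. The arrays had medians of 3.31 to 3.36 and correlated within groups at 0.925 to 0.954 (IL8 transgenic) and 0.975 to 0.983 (control) across probe sets. All animals are labelled male. Xist, the RNA of the inactive X chromosome, was at 12.27 to 12.89 on the IL8 transgenic arrays and at 2.33 to 2.64 on the control arrays, while the Y-linked gene Eif2s3y was at 2.39 to 2.71 on the IL8 transgenic and 9.99 to 10.22 on the control arrays. Genotype and this sex-linked split cannot be told apart, in any value below. Colon epithelium markers were present on every array, with a mean level over 10 genes of 11.19 to 11.53 in IL8 transgenic and 11.03 to 11.62 in control tumours. IL8 transgenic array 2 also held squamous epithelium markers that were near background elsewhere, such as Krtdap, at 12.31 on that array and 2.62 or less on the others. Other squamous markers were highest there but present elsewhere, such as Krt14, at 12.93 on that array and 5.70 to 8.04 on the others.

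In the IL8 transgenic tumours the class II chain genes and the invariant chain gene differed from the control tumours by -1.96 to -1.42 log2 units at their brightest probe sets. None of these differences passed the test across all probe sets. A probe set was tested where it reached 4 on at least 3 arrays, which 11 of the 16 member probe sets did, for 6 genes. The members differed by a median of -1.53 over these 6 genes, against -0.02 over all 19310 probe sets tested. With limma, 0 of the 11 had an adjusted p under 0.05, the background being 0.057% of all probe sets tested. The dimmest H2-Aa probe set was under 4 on every IL8 transgenic array and entered the test only through the control arrays. Of the other 10, 9 had an unadjusted p under 0.05 with a lower level in IL8 transgenic tumours, where the background was 3.29%. Probe sets of 1 gene read the same transcripts, so the 11 are not independent.

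H2-Aa, the I-A alpha chain, had 4 tested probe sets. The brightest was at 8.96, 10.31 and 10.95 on IL8 transgenic arrays 1, 2 and 3, against 11.18, 11.65 and 11.63 on control arrays 1, 2 and 3. All IL8 transgenic arrays lay below all control arrays, by a wide margin on array 1 and by a small one on array 3. The means were 10.07 ± 1.01 in IL8 transgenic and 11.49 ± 0.27 in control tumours (SD, n = 3 each). The difference was -1.42 ± 0.50 (SE of the fit), or 2.67-fold lower, and did not pass (limma adjusted p 0.806). The other tested H2-Aa probe sets gave -1.31, -2.14 and -1.30. The groups did not overlap at those with -1.31 and -2.14 (background 6.31% for this direction). The last of the 3, the dimmest, was under 4 on every IL8 transgenic array, so that it entered the test only through the control arrays. The filter thus fixed in advance that its groups would not overlap, and its fold is at least 1.38-fold lower. Probe sets whose names end in x_at or s_at may read related transcripts as well.

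H2-Ab1, the I-A beta chain, had 6.92, 8.27 and 9.36 on IL8 transgenic arrays 1, 2 and 3 at its brightest probe set, against 9.41, 10.10 and 10.07 on control arrays 1, 2 and 3. The groups did not overlap, but IL8 transgenic array 3 and control array 1 were almost level. The difference was -1.68 ± 0.61 (SE), from 8.18 ± 1.22 in IL8 transgenic and 9.86 ± 0.39 in control tumours (SD, n = 3 each; limma adjusted p 0.806). Its other probe sets differed by -2.02 and -1.88. At the first of them, IL8 transgenic array 3 (6.51) lay above control array 1 (6.47), so the groups overlapped there.

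H2-Eb1, the I-E beta chain, had the widest difference of the brightest probe sets. It stood at 6.65, 8.34 and 9.56 on IL8 transgenic arrays 1, 2 and 3, against 9.63, 10.47 and 10.33 on control arrays 1, 2 and 3. The levels on the IL8 transgenic arrays spread over 2.92 log2 units, and those on the control arrays over 0.84. The difference was -1.96 ± 0.72 (SE), 3.90-fold lower, with a 95% confidence interval of -3.70 to -0.23 before adjustment (limma adjusted p 0.806). The I-E alpha chain gene H2-Ea, which RefSeq lists as a transcribed pseudogene in the C57BL/6J reference, was at 3.64 to 4.34 on the IL8 transgenic and 3.25 to 4.07 on the control arrays and was not tested.

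Cd74, the invariant chain, followed the chains. It was at 6.81, 7.33 and 8.58 on IL8 transgenic arrays 1, 2 and 3, against 8.75, 9.35 and 9.58 on control arrays 1, 2 and 3. No IL8 transgenic array reached the lowest control array. The difference was -1.65 ± 0.48 (SE), 3.14-fold lower, and its interval before adjustment ran from -2.81 to -0.49 (limma adjusted p 0.806).

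**Figure D1:**
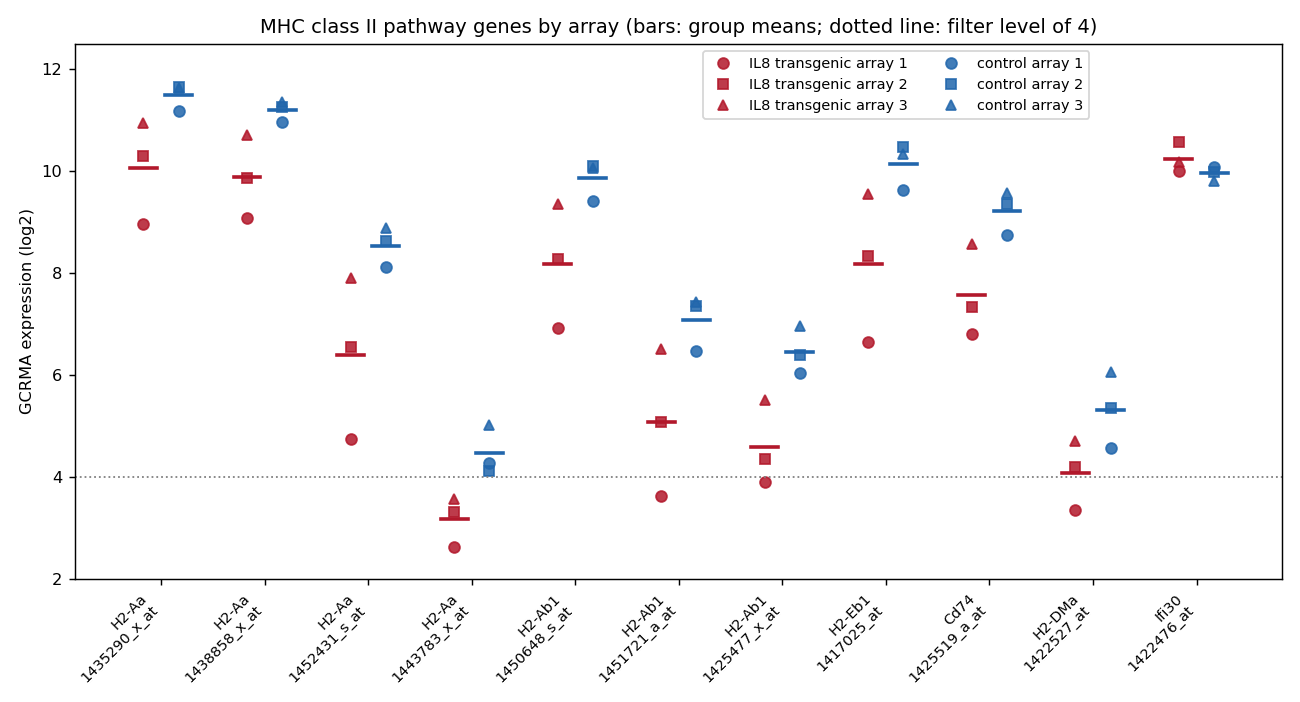
Log2 GCRMA level (y axis) of the 11 tested member probe sets (x axis), with IL8 transgenic arrays in red at the left and control arrays in blue at the right of each pair, 1 point per array and a bar for the group mean (n = 3). IL8 transgenic array 1 is the lowest point at 10 of the 11 probe sets (24.6% of all probe sets tested), and Ifi30 is the exception. The dimmest H2-Aa probe set is under 4 on every IL8 transgenic array and entered the test only through the control arrays.

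The peptide exchange genes were dim or not detected. H2-DMa, the alpha chain of H2-DM, was at 3.34, 4.20 and 4.71 on IL8 transgenic arrays 1, 2 and 3 at its brighter probe set, against 4.56, 5.35 and 6.05 on control arrays 1, 2 and 3. IL8 transgenic array 3 lay above control array 1, so the groups overlapped. The difference was -1.24 ± 0.49 (SE), or -1.02 with values under 4 set to 4, and did not pass (limma adjusted p 0.806). The other H2-DMa probe set reached at most 2.00 on any array. H2-Oa, the alpha chain of the H2-DM inhibitor H2-O, reached at most 2.55, and the non-member genes H2-Ob, H2-Eb2 and H2-DMb2 were also under 4 on every array.

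Ciita, the coactivator of the family, was under 4 at all 3 of its probe sets on all 6 arrays. Its brightest probe set was at 2.79, 3.27 and 3.35 on IL8 transgenic arrays 1, 2 and 3, against 3.38, 3.38 and 3.27 on control arrays 1, 2 and 3. These values sit near the array medians, so a difference in Ciita was not detectable here, and no fold is given.

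Ifi30 was bright in both groups and was the 1 tested member that was not lower in IL8 transgenic tumours. It was at 10.01, 10.57 and 10.18 on IL8 transgenic arrays 1, 2 and 3, against 10.09, 9.98 and 9.80 on control arrays 1, 2 and 3. The groups overlapped. The difference was 0.29 ± 0.20 (SE), with a 95% confidence interval of -0.18 to 0.77 before adjustment and a limma adjusted p of 0.806. The lower end of that interval lay above the differences of -1.96 to -1.42 fitted for the chain genes and Cd74, and the difference between the genes was not tested.

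**Figure D2:**
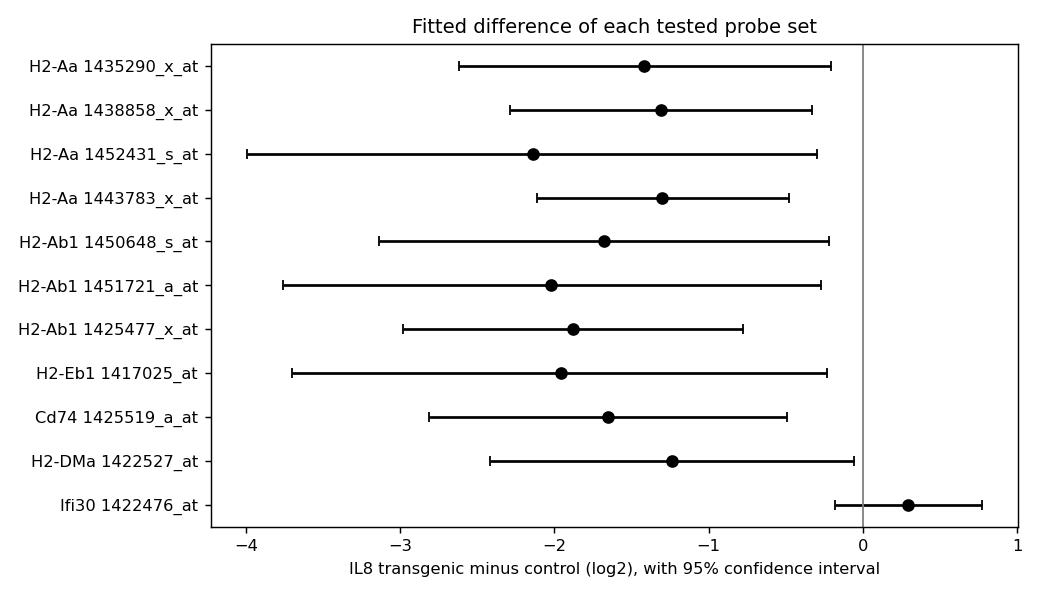
Fitted difference, IL8 transgenic minus control, in log2 units (x axis) for the 11 tested member probe sets (y axis), with the 95% confidence interval of the limma fit before adjustment for multiple tests. The 10 probe sets of H2-Aa, H2-Ab1, H2-Eb1, Cd74 and H2-DMa lie between -2.14 and -1.24, and Ifi30 lies at 0.29.

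The array to array pattern was similar at the chain genes and Cd74. At the brightest probe sets of H2-Aa, H2-Ab1, H2-Eb1 and Cd74, IL8 transgenic arrays 1, 2 and 3 were the 3 lowest in that order. The share of all probe sets with this order was not computed. Control array 1 was the lowest control at each of the 4 genes. At H2-DMa IL8 transgenic array 3 lay above control array 1, and Ifi30 had another order. IL8 transgenic array 1 was the lowest of all 6 arrays at 10 of the 11 tested member probe sets, against 24.6% of all probe sets tested. These 10 include the dimmest H2-Aa probe set, which entered the test only through the control arrays. Its lowest array therefore had to be an IL8 transgenic one. Several of the 10 are probe sets of the same gene and are not independent. Averaged over H2-Aa, H2-Ab1, H2-Eb1 and Cd74, the deviation from the control mean was -2.85, -1.62 and -0.57 on IL8 transgenic arrays 1, 2 and 3, against -0.44, 0.21 and 0.22 on control arrays 1, 2 and 3. The deviations of the 4 genes spread over 1.08 on IL8 transgenic array 1, 0.71 on array 2 and 0.21 or less on the other 4. In the mean of the 4 genes, IL8 transgenic array 3 lay 0.13 below control array 1. That mean spread over 2.28 among the IL8 transgenic arrays and over 0.66 among the control arrays.

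Leaving out the dimmest H2-Aa probe set, all 3 IL8 transgenic arrays lay below all 3 control arrays at 7 of 10 tested member probe sets, where 6.31% of all probe sets tested did so. The size of the difference rested in part on IL8 transgenic array 1. Without it the differences were -0.86 for H2-Aa, -1.05 for H2-Ab1, -1.19 for H2-Eb1, -1.27 for Cd74 and -0.87 for H2-DMa at the brightest probe sets. On that array the 3′ control probe set exceeded the 5′ one by the least, by 0.71 at Gapdh (0.87 to 0.96 elsewhere) and by 1.46 at Actb (1.66 to 1.82 elsewhere). The part of this in the class II values was not tested. The squamous genes were highest on IL8 transgenic array 2. Without that array the differences were -1.53 for H2-Aa, -1.72 for H2-Ab1, -2.04 for H2-Eb1, -1.53 for Cd74, -1.30 for H2-DMa and 0.14 for Ifi30.

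Most tested markers of macrophages, dendritic cells and leukocytes in general also had lower mean levels in the IL8 transgenic tumours. No B cell marker was tested. The mean of the tested dendritic cell genes was almost level on IL8 transgenic arrays 1 and 2, at -1.28 and -1.22 from the control mean, but single genes differed from it. The macrophage and pan-leukocyte lists were lowest on array 2. In bulk tumour RNA, fewer cells of a type and less RNA per cell cannot be told apart. Of the macrophage list, 12 of 14 genes were tested and 11 were lower, with a median of -1.04. None passed (limma adjusted p 0.769 or more), and 7 had an unadjusted p under 0.05 with a lower level (background 3.29%). The fractalkine receptor gene Cx3cr1 differed by -2.48, Aif1, which encodes a calcium-binding protein of macrophages, by -2.20, and Mrc1, a lectin receptor gene, by -0.55. The list's mean level over all measured genes was 6.29 to 7.50 in IL8 transgenic and 7.60 to 8.19 in control tumours, and Cd163 was under 4 on every array. By array its tested genes deviated from the control mean by -1.01, -1.81 and -0.50 on IL8 transgenic arrays 1, 2 and 3, with array 2 the lowest. Cx3cr1, Aif1, Mrc1 and Adgre1 were lowest on array 1, but Cx3cr1 was under 4 on arrays 1 and 2 alike. Csf1r, Cd68, C1qa, C1qb, C1qc, Lyz2 and Fcgr1 were lowest on array 2, and Cd14 on array 3. The part of the macrophage level in the class II values was not tested.

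Pan-leukocyte genes were likewise lower at all 7 tested members of 8, with a median of -0.87. With limma 0 passed and 4 had an unadjusted p under 0.05 with a lower level (background 3.29%). The phosphatase gene Ptprc (CD45) differed by -0.87, the actin-bundling gene Lcp1 by -0.99 and the actin regulator gene Coro1a by -0.68. The list deviated by -0.98, -1.32 and -0.26 on IL8 transgenic arrays 1, 2 and 3, against the -2.85, -1.62 and -0.57 of the 4 class II genes. Its mean level was 6.90 to 7.92 in IL8 transgenic and 7.83 to 8.36 in control tumours, with Rac2 under 4 on every array. Its part in the class II values was not tested either.

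Defining markers of dendritic cells and B cells were mostly below the level of 4. Of 12 dendritic cell genes, 4 were tested and all 4 were lower, with a median of -1.01. For Itgax, under 4 on every IL8 transgenic array, the filter fixed this direction in advance. By array they deviated from the control mean by -1.28, -1.22 and -0.30 on IL8 transgenic arrays 1, 2 and 3, and the part of this in the class II values was not tested. With limma 0 passed and 1, Itgax, had an unadjusted p under 0.05 with a lower level (background 3.29%). Itgax (CD11c) was at 2.70, 2.83 and 3.88 on IL8 transgenic arrays 1, 2 and 3, against 4.05, 4.91 and 4.36 on control arrays 1, 2 and 3, and entered the test only through the control arrays. Cd83, a marker of mature dendritic cells that helps to keep class II at the surface, differed by -1.43, or by -1.04 with values under 4 set to 4. The integrin gene Itgae differed by -0.72. Flt3, Zbtb46, Xcr1, Batf3, Cd209a, Ccr7 and Siglech were under 4 on every array, and the mean level of the list was 3.32 to 3.75 in IL8 transgenic and 3.73 to 3.99 in control tumours. None of the 10 measured B cell genes was tested. Cd79a, Pax5, Cr2, Blk, Cd22, Fcer2a, Bank1 and Fcrla were under 4 everywhere, the other 2 reached 4 on IL8 transgenic array 3 alone, and the B cell list's mean level was 2.60 to 3.12 in IL8 transgenic and 2.84 to 3.07 in control tumours.

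**Figure D3:**
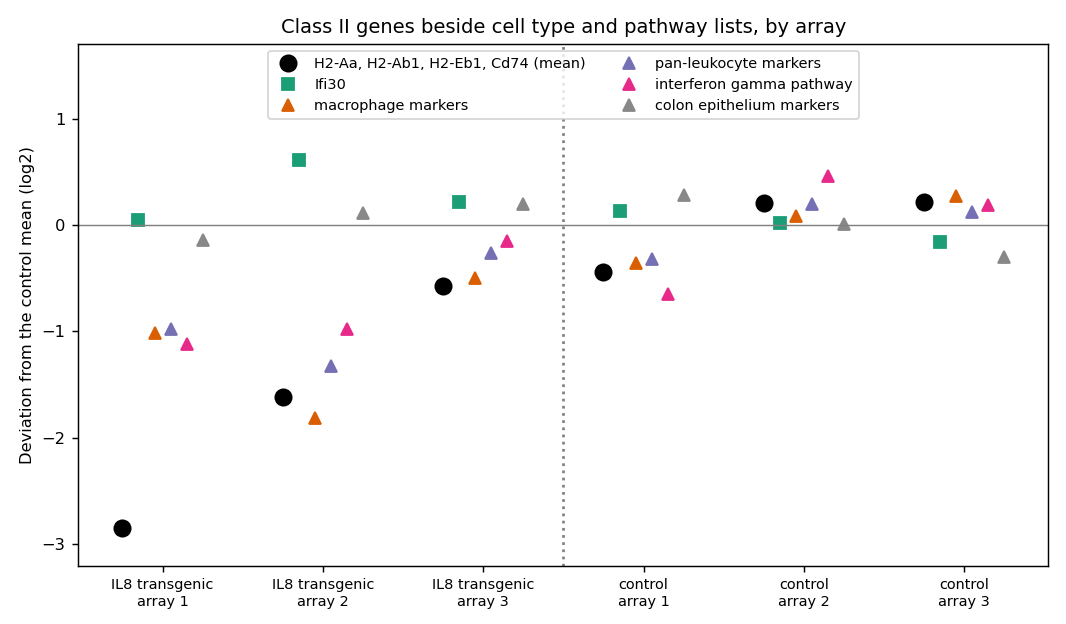
Deviation of each array from the control mean in log2 units (y axis) on the 6 arrays (x axis), for the mean of H2-Aa, H2-Ab1, H2-Eb1 and Cd74 (black), Ifi30 (green squares) and the mean of 4 gene lists (triangles). On IL8 transgenic array 1 the 4 class II genes are at -2.85 and the macrophage and pan-leukocyte lists at -1.01 and -0.98, while on array 2 they are at -1.62, -1.81 and -1.32. The mean of the interferon gamma list rests heavily on Cxcl9, at 3.03 and 3.29 on IL8 transgenic arrays 1 and 2.

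Other parts of the pathway differed by less. All 7 transcription factor genes that act on class II promoters beside CIITA were tested, with a median of -0.19. With limma 0 passed in either direction and 0 had an unadjusted p under 0.05 (background 3.29% lower and 2.22% higher). The RFX subunit gene Rfx5 differed by -0.66 ± 0.42 (SE) and was at 7.14, 6.28 and 7.99 on IL8 transgenic arrays 1, 2 and 3, against 7.75, 7.89 and 7.77 on control arrays 1, 2 and 3. Its groups overlapped, and its lowest array was IL8 transgenic array 2. The NF-Y subunit gene Nfyb differed by -0.32 and Creb1 by -0.19, while the RFX subunit gene Rfxap differed by 0.23.

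The endosomal proteases were bright on every array. Over the 8 tested genes the median was -0.18. With limma 0 passed in either direction and 0 had an unadjusted p under 0.05 (background 3.29% lower and 2.22% higher). Cathepsin S, which makes the last cuts in the invariant chain, is encoded by Ctss, which was at 11.53, 11.93 and 11.88 on IL8 transgenic arrays 1, 2 and 3, against 11.78, 11.92 and 11.64 on control arrays 1, 2 and 3. Ctss was named outside the rule for named genes, after its values were seen. The cathepsin genes Ctsd, Ctsb and Ctsz differed by -0.39, -0.21 and -0.25, and the asparaginyl endopeptidase gene Lgmn by -0.40, with limma adjusted p from 0.806 to 0.815. Of the 10 genes for class II turnover and costimulation, 3 were tested. With limma 0 passed and 0 had an unadjusted p under 0.05 (background 3.29% lower and 2.22% higher). The ubiquitin ligase gene Marchf8 differed by 0.30, Cd40 by 0.02 and the PD-L1 gene Cd274 by -0.37. Marchf1, Cd80, Icosl and Pdcd1lg2 were under 4 on every array.

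Interferon gamma induces Ciita and with it the class II genes. Ifng itself was under 4 on every array, and the 8 tested genes of its pathway had a median of -0.33. With limma 0 of the 8 passed or had an unadjusted p under 0.05 (background 3.29% lower and 2.22% higher). The interferon-induced chemokine gene Cxcl9 was at 3.03, 3.29 and 8.33 on IL8 transgenic arrays 1, 2 and 3, against 5.70, 10.24 and 9.86 on control arrays 1, 2 and 3. Arrays 1 and 2 of the IL8 transgenic group and array 1 of the control group were the low ones, and the groups overlapped, since IL8 transgenic array 3 lay above control array 1. Cxcl9 differed by -3.72 ± 1.80 (SE; limma adjusted p 0.806), or by -3.16 with values under 4 set to 4. The transcription factor gene Irf1 differed by -0.46 and the kinase gene Jak1 by -0.22, neither with overlapping groups (background 6.31%). Cxcl10 differed by -0.93. The mean of the pathway's tested genes deviated by -1.12, -0.98 and -0.15 on IL8 transgenic arrays 1, 2 and 3, against -0.65, 0.46 and 0.19 on control arrays 1, 2 and 3. Cxcl9 weighs heavily in this mean, above all on IL8 transgenic arrays 1 and 2, where it was under 4. No other gene of the 8 differed by more than the -0.93 of Cxcl10, and the mean without Cxcl9 was not computed.

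**Figure D4:**
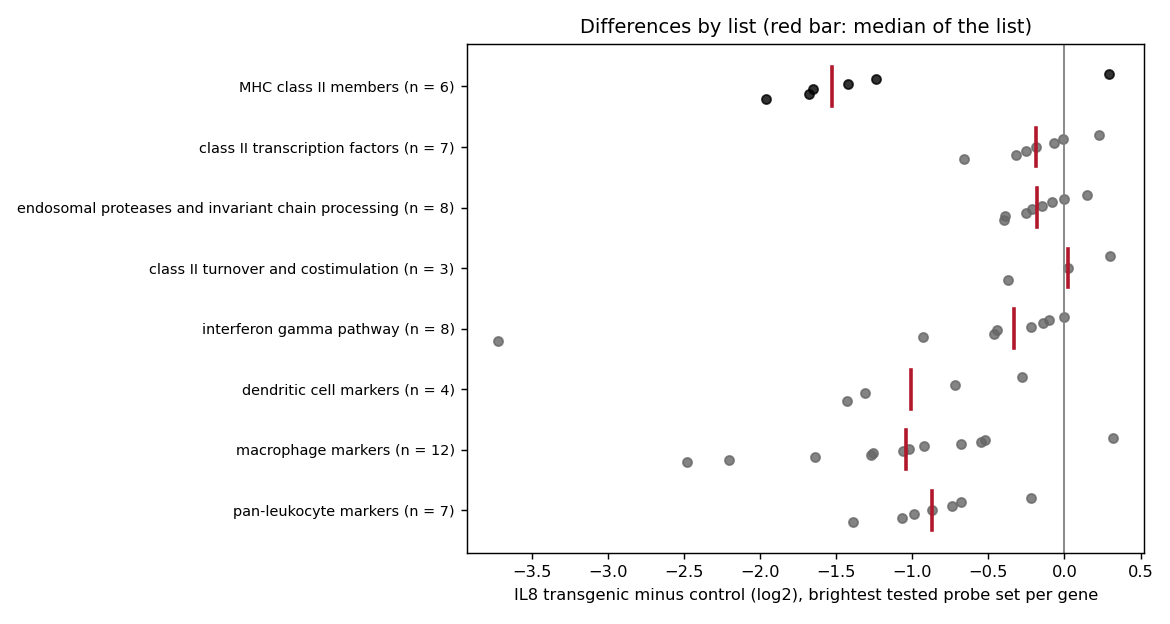
Fitted difference, IL8 transgenic minus control, in log2 units (x axis) for the brightest tested probe set of each gene, by list (y axis), with 1 point per gene and a red bar at the list's median. The class II members have a median of -1.53, against -0.19 for the transcription factors, -0.18 for the endosomal proteases and -1.04 for the macrophage markers.

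Genes with the profile most like the class II chains were ranked by the root mean square distance between mean-centred log2 levels over the 6 arrays, against the mean of H2-Aa, H2-Ab1, H2-Eb1 and Cd74. Over 10283 other genes the median distance was 1.10 and the smallest 0.22. Of the members, H2-DMa lay at 0.43 and Ifi30 at 1.20. The nearest other gene was the basement membrane collagen gene Col4a5, at 2.67, 4.17 and 5.36 on IL8 transgenic arrays 1, 2 and 3, against 5.78, 6.09 and 6.26 on control arrays 1, 2 and 3. It was followed by Tmod2, an actin-capping protein gene, at a distance of 0.32. The guanylate-binding protein gene Gbp8, Cd83, the growth factor gene Bmp4 and the leukocyte gene Lst1 each lay at 0.33. Ly86, which encodes the MD-1 protein of myeloid and B cells, and Tmem158 each lay at 0.34. The ranking describes 6 arrays that share these groups, and none of these genes passed the test (limma adjusted p 0.806 for each).

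Among markers of other cells, the plasma cell list had 4 tested genes with a median of 0.14 and a mean level of 6.21 to 6.90 in IL8 transgenic and 6.17 to 6.72 in control tumours. Among T cell genes, which mark the cells that read class II, 1 of 8 measured was tested, and Cd3e, Cd3g, Cd4, Cd2 and Cd247 were under 4 on every array. The colon epithelium list had a median of 0.08 over 10 genes, and its mean deviation stayed within -0.14 to 0.20 on the IL8 transgenic arrays. Of 7 measured neutrophil genes 3 were tested, with a median difference of 1.02. Of the untested ones, Csf3r averaged 3.22 in IL8 transgenic and 3.79 in control tumours, and Cxcr2 2.91 in IL8 transgenic and 2.81 in control tumours. Ngp averaged 4.55 in IL8 transgenic and 3.35 in control tumours, and Mmp8 2.83 in IL8 transgenic and 2.27 in control tumours. These untested genes were named after their values were seen. Of the tested ones, S100a8 and S100a9 had all IL8 transgenic arrays above all control arrays (background 4.61%). With limma 0 of these 3 passed, and 2 had an unadjusted p under 0.05 with a higher level (background 2.22%). Squamous epithelium genes deviated by 0.57, 4.93 and 0.20 on IL8 transgenic arrays 1, 2 and 3, and stroma genes by -1.04, 1.28 and 0.62, and their part in the class II values was not tested.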

How the data were processed

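RNA from 3 IL8 transgenic and 3 control colon tumours was measured on 6 arrays. The deposited values are log2 expression values that the authors made with GCRMA, per the submitters' processing notes, which name no version. That they are on a log2 scale was inferred from their range. No further normalization was applied. Symbols came from the platform annotation.

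Probe sets with a value of at least 4 on at least 3 arrays were kept, without 64 AFFX controls, which left 19310. The fit used lmFit and eBayes of limma 3.58.1 under R 4.3.3, with IL8 transgenic minus control as the contrast, and p-values were adjusted by Benjamini-Hochberg over the whole set. The procedure was also run on simulated data, in which probe sets varied independently and with the same spread in both groups. That run checks the calculation only, since these arrays differ from that setting. The number of arrays limits the precision. Lists use the brightest probe set per gene. Named were all members, up to 4 genes of smallest unadjusted p per pathway list, up to 3 per cell type list, and the 8 genes nearest in profile. Where a group lay under 4 on every array, it was set to 4 for the fold. Members, lists and alternatives were chosen with earlier results of these data known.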

Additional observations from a re-analysis of the deposited data

How the results depend on the processing

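Under 15 alternatives (no filter, a filter at 6, quantile normalization, median centring, a trended and robust prior, array weights, a replicate block, values under 4 set to 4, no X- and Y-linked genes, and each array left out), the 11 tested member probe sets gave 163 differences. All 163 kept their direction and their side of the threshold, with limma adjusted p of 0.213 or more, and 0 member probe sets passed in any alternative. An unadjusted limma p under 0.05 was less steady. At the brightest probe sets without control array 3, it was 0.079 for H2-Aa, 0.086 for H2-Ab1, 0.0869 for H2-Eb1, 0.0474 for Cd74 and 0.129 for H2-DMa. Without IL8 transgenic array 3 it was 0.00713, 0.00391, 0.00449, 0.000906 and 0.0268 for the same genes. The median member difference ran from -2.00 to -0.96 with 1 array left out, the ends being without IL8 transgenic array 3 and without IL8 transgenic array 1. It was -1.60 with all tested probe sets of a gene averaged. The count of all probe sets that passed was 11, ran from 8 to 11 with 1 array left out, and was 3 without genes placed on the X and Y chromosomes, by the removal of those probe sets. With array weights the brightest probe sets differed by -0.94 for H2-Aa, -1.06 for H2-Ab1, -1.25 for H2-Eb1 and -1.09 for Cd74. Deviations from the group means correlated at -0.267, -0.277 and -0.051 between same-numbered arrays, so the numbers were not taken to pair samples. With the replicate block, 8 probe sets passed, 0 of them members, and the median member difference was -1.53. The limits are 3 arrays per group, and levels near or under 4 for H2-DMa, H2-Oa and Ciita.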
